A study of Mus musculus with 6 samples.

Results

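The 10 Kruppel-like factor genes described here are Klf2, Klf3, Klf4, Klf5, Klf6, Klf7, Klf9, Klf10, Klf12 and Klf13, which were read by 38 of the 45037 probe sets tested and make up 10 of 18193 measured genes. A probe set, the group of short probes that reads 1 transcript, was taken where the platform annotation gave it exactly 1 gene symbol and that symbol was a member. Total RNA came from endothelial cells isolated from gel plugs of the basement membrane extract Matrigel, which lay in the peritoneal cavity of nude mice with a Balb/c nude background. The 3 control plugs held no recombinant MFAP5 and the 3 MFAP5 plugs held recombinant MFAP5, a secreted glycoprotein of elastic microfibrils, and each sample was read on 1 Affymetrix mouse expression array. All 6 samples share the strain and the gel. The animals' age and sex, the dose and origin of the protein, the time in the peritoneum and the way cells were isolated are not stated in the labels. Nothing in the labels ties each sample to an animal of its own, so p-values measure the spread between these samples.

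Kruppel-like factors are transcription factors that bind GC-rich and CACCC-type DNA through a set of C2H2 zinc fingers near the carboxyl terminus. They differ outside the fingers: Klf2, Klf4, Klf5, Klf6 and Klf7 carry activating regions, Klf3 and Klf12 recruit the co-repressor CtBP, and Klf9, Klf10 and Klf13 bind the co-repressor Sin3a. In endothelium, laminar flow raises Klf2 and Klf4 through the kinase ERK5 and MEF2 factors, and the proteins of the cerebral cavernous malformation (CCM) complex hold both genes down. Klf2 and Klf4 are known there for raising endothelial nitric oxide synthase and thrombomodulin and for lowering adhesion molecules and cytokines.

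Values are log2 signals, each expressed as the distance from that probe set's median of 6 arrays. A value therefore says how far an array lies from the middle of the 6. It gives no level, so whether a gene was well above background, and whether endothelial markers were present at all, could not be read. Where the groups of a probe set do not overlap, the inner control and the inner MFAP5 value mirror each other around 0 by this centring. The number of arrays limits the precision. Control replicate 1 stood apart: over probe sets, which are not independent, its correlation was -0.028 and 0.020 with control replicates 2 and 3, whereas the correlation between those was 0.69. Spike-in control probe sets averaged -0.28 in that array and 0.51 and 0.53 in control replicates 2 and 3, against -0.033 to -0.00084 with MFAP5. Arrays were therefore also left out in turn, and calls that this changed are given.

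Of the 10 factors, 3 rose with MFAP5 and none fell: Klf2, Klf4 and Klf6. The limma test with Benjamini-Hochberg adjustment over all genes called 3.55% of genes in either direction, 0.759% higher and 2.79% lower, at an adjusted p under 0.05. With all arrays these were 138 genes higher and 508 lower. Without control replicate 1 they were 760 and 1914, without control replicate 2 they were 16 and 230, and without control replicate 3 they were 14 and 205. With an MFAP5 array left out they were 68 to 122 and 295 to 426. All MFAP5 arrays lay above all controls in Klf2, Klf4 and Klf6, 3 of the 10, against 6.51% of all genes, and all below in 0, against 17.8%. At an unadjusted p under 0.05 the same 3 factors were higher and 0 were lower, against 5.33% of all genes higher and 14.4% lower. These shares of all genes are also the background of the list counts below. The other 7 factors had overlapping groups, and their gene values differed by -0.094 to 0.26. The median difference of the 10 factors was 0.18 and that of all genes was -0.079.

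Klf2, the flow-induced factor of quiescent endothelium, is read by 1 probe set (1448890_at). Control replicates 1, 2 and 3 had values of -0.54, -0.26 and -0.26, and the MFAP5 replicates had 0.26, 0.40 and 0.61. All 3 MFAP5 arrays lay above all 3 controls, and control replicate 1 was the lowest array. The group means were -0.35 ± 0.16 and 0.42 ± 0.18 (SD, n = 3 each). The difference of 0.77 ± 0.13 (SE) is a 1.71-fold higher signal if the log base is 2 (limma adjusted p = 0.0165).

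Klf4, which shares many endothelial targets with Klf2 and also acts in epithelium and myeloid cells, is read by 2 probe sets. The mean of both gave controls of -0.16, -0.77 and -0.71 and MFAP5 arrays of 0.16, 0.48 and 0.47. The groups did not overlap, but control replicate 1 lay nearer to MFAP5 replicate 1 than to either other control. The difference was 0.92 ± 0.18 (SE, n = 3 per group), a 1.89-fold higher signal (limma adjusted p = 0.0286).

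Klf6, an early-response factor of tissue injury that is found in many cell types, is read by 5 probe sets and changed the most of the 10. Controls had gene values of -0.33, -0.69 and -0.71, and MFAP5 arrays of 0.31, 0.31 and 0.59. Here too the groups were apart, control replicate 1 was the control nearest to the MFAP5 arrays, and MFAP5 replicate 3 was the highest. The difference was 0.98 ± 0.14 (SE, n = 3 per group), a 1.98-fold higher signal (limma adjusted p = 0.00724). The 3 factors thus did not order the arrays alike: control replicate 1 was the lowest control for Klf2 and the highest for Klf4 and Klf6.

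**Figure D1:**
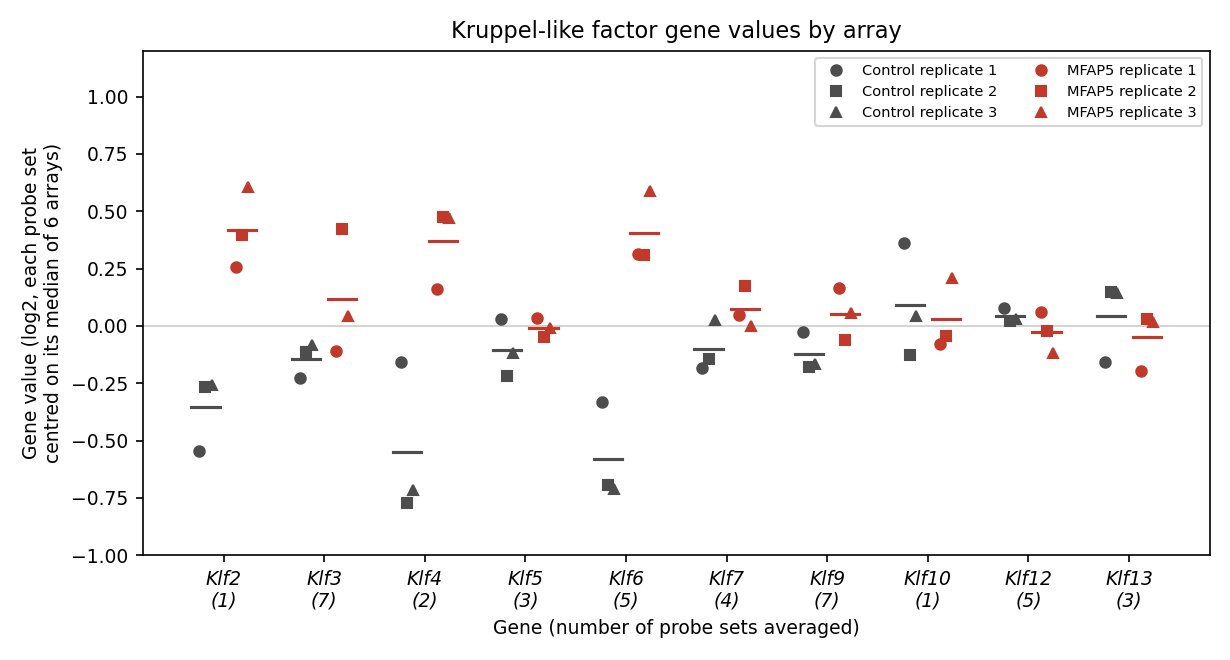
Gene values (log2, centred per probe set) of the 10 factors in the 3 control (grey) and 3 MFAP5 (red) arrays, with symbols for replicates, short lines for group means and the number of probe sets in brackets. Only for Klf2, Klf4 and Klf6 do all red points lie above all grey points.

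Leaving out some single arrays lost the calls on Klf2 and Klf4, while Klf6 passed with any array left out. Without control replicate 2 or control replicate 3 only Klf6 of the 3 passed, with adjusted p = 0.0455 and 0.0496. Klf2 then had differences of 0.82 and 0.82 (limma adjusted p = 0.0584 and 0.0626), no smaller than with all arrays. Fewer genes of the whole series were called higher in those fits, 16 and 14 against 138. Klf4 had differences of 0.81 and 0.84 there (adjusted p = 0.130 and 0.141), and also missed the threshold without MFAP5 replicate 2 or 3 (0.0823 and 0.0765). Without control replicate 1, the array that stood apart, the differences were 0.68 for Klf2, 1.11 for Klf4 and 1.11 for Klf6, and all 3 passed. With the spike-in level of each array as a covariate they were 0.87, 0.73 and 0.86, and all 3 passed as well.

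**Figure D2:**
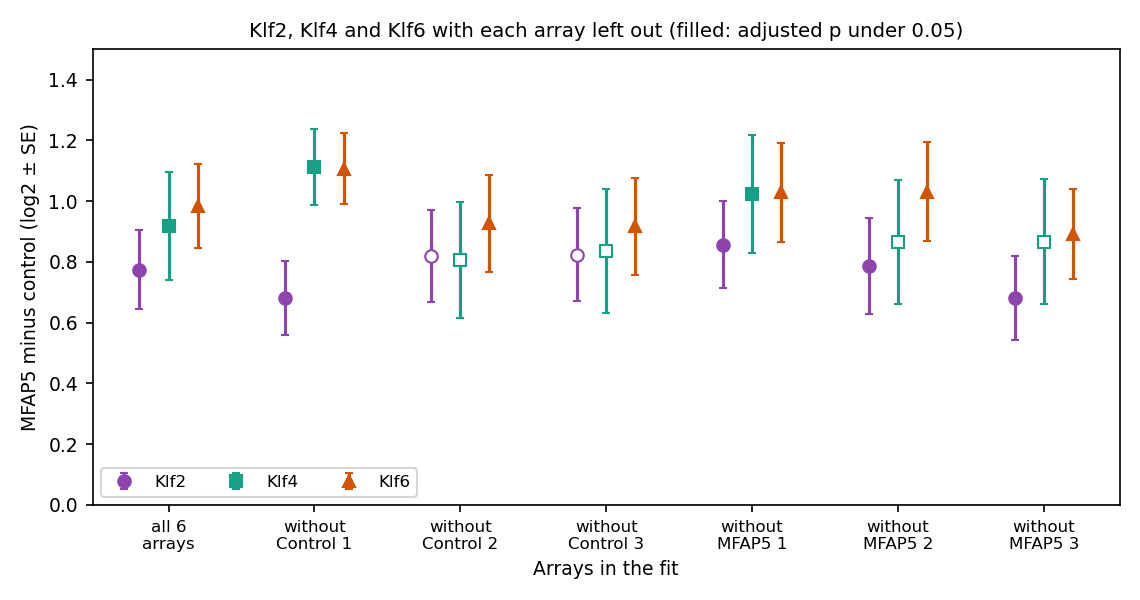
Difference between MFAP5 and control (log2, with the SE of limma) for Klf2, Klf4 and Klf6 with all 6 arrays and with each array left out, where filled symbols have an adjusted p under 0.05. Klf6 is filled throughout at 0.89 to 1.11, whereas Klf2 and Klf4 are open without control replicate 2 or 3.

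The promoters of the 3 factors that rose are shown with matches to the motif of MEF2, named above, and to motifs of other transcription factors. RefSeq promoter entries (GRCm38.p6) were matched for 8 of the 10 genes. Each line holds the 250 bases before the start site, 5′ to 3′ on the gene's strand: chr8:72318812-72319061 on the plus strand for Klf2, chr4:55532476-55532725 on the minus strand for Klf4 and chr13:5861239-5861488 on the plus strand for Klf6. Capitals mark matches, on either strand, to MEF2 and CArG box motifs, the cAMP response element (CRE) half-site TGACG, the AP-1 motif TGANTCA, the NF-kappa B motif and the E-box CACGTG.
Klf2: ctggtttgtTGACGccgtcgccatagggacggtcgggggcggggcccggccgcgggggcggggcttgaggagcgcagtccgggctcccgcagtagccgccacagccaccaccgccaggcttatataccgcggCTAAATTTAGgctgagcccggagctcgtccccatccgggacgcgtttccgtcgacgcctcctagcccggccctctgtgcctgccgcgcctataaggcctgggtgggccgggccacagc
Klf4: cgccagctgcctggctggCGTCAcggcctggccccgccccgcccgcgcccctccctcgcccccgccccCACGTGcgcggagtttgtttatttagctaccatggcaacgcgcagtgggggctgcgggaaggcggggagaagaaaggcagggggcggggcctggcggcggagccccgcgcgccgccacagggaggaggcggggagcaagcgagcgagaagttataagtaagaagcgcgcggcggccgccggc
Klf6: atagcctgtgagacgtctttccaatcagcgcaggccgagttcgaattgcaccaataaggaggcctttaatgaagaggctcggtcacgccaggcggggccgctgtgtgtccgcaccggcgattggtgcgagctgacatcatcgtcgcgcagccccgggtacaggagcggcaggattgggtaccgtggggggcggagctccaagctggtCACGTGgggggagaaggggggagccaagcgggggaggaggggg

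Klf2 held the MEF2 match CTAAATTTAG, 118 to 109 bases before its start, the sole MEF2 match among the 8 windows. Such a match occurs in 2.92% of 32851 RefSeq promoter windows of the same length. Klf2 and Klf4 each held 1 CRE half-site, which 17.8% of windows have, and Klf6 held none. Klf9, Klf12 and Klf13 held 1 each, so the half-site occurred in 5 of the 8 windows, with no full CRE (TGACGTCA) in any. The windows of Klf7 and Klf12 lie inside the RefSeq span of the gene, before an internal start site. Klf4 and Klf6 each held 1 E-box (6.02% of windows). The GC box GGGCGG, a sequence that Kruppel-like and Sp factors bind, matched 2 times in Klf2, 4 times in Klf4 and 1 time in Klf6. It also matched 6 times in Klf3, 3 times in Klf13 and 1 time in Klf7. In all, 6 of the 8 windows held it, as 32.7% of all windows do. CACCC, which 52% of windows hold, matched 1 time in Klf2 and in neither Klf4 nor Klf6, and 6 of the 8 windows held it. AP-1 matched in Klf9 alone, where it overlaps a CACCC match, and neither the CArG box nor the NF-kappa B motif was matched in any of the 8. A match describes letters and is not evidence of binding.

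Single probe sets of the 10 genes were tested among all probe sets, where limma called 1.56% higher and 1.72% lower. Of the 38, 7 were called higher, all of them of Klf2, Klf4 or Klf6, and 1 was called lower, of Klf12. Both groups were apart, with MFAP5 higher, in 12 of the 38, against 9% of all probe sets, and with MFAP5 lower in 2, against 14.2%. Without control replicate 2 or 3 no probe set was called (11 higher and 1 lower at an unadjusted p under 0.05). Without MFAP5 replicate 1, 2 or 3, 4, 3 and 1 were called higher, and 0 were called lower each time. Only 1447448_s_at of Klf6 passed in each of these fits. The probe set of Klf2 missed the threshold without MFAP5 replicate 2 or 3 (limma adjusted p = 0.0651 and 0.0790). Without control replicate 1, 12 were called higher, the added ones being 1454666_at of Klf3, 1451021_a_at of Klf5, 1449439_at of Klf7 and 1422264_s_at and 1456341_a_at of Klf9. That fit also called more genes over the whole series, 2674 against 646 with all arrays.

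Both probe sets of Klf4 were called, but they differed in size. Probe set 1417394_at was at -0.19, -1.19 and -1.04 in control arrays and 0.19, 0.38 and 0.39 in MFAP5 arrays, a difference of 1.13 ± 0.24 (SE; limma adjusted p = 0.0457). Probe set 1417395_at was at -0.13, -0.35 and -0.39 against 0.13, 0.57 and 0.56, a difference of 0.71 ± 0.16 (adjusted p = 0.0497). Both place control replicate 1 nearest to the MFAP5 arrays, and both lie close to the threshold. The call on 1417395_at was lost with the replicate number as a block (adjusted p = 0.0636) and with the spike-in covariate (0.122). It was also lost without MFAP5 replicate 2 or 3 (0.138 and 0.145). The call on 1417394_at was lost with any MFAP5 array left out (adjusted p from 0.101 to 0.121).

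The 5 probe sets of Klf6 all pointed up, and 4 of them were called. The widest, 1418280_at, was at -0.32, -1.36 and -1.33 in control arrays and 0.48, 0.32 and 0.78 in MFAP5 arrays, a difference of 1.53 ± 0.27 (adjusted p = 0.0230). Next was 1433508_at at 1.36, and then 1447448_s_at at 0.88 and 1427742_a_at at 0.76. The last, 1459718_x_at, differed by 0.39 and missed the threshold (adjusted p = 0.128), although its groups were apart. In 1418280_at and 1433508_at control replicate 1 lay far above the other controls, at -0.32 and -0.33, whereas in the other 3 probe sets the controls lay close together.

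Klf5 and Klf7, which carry activating regions like the factors above, had gene values that did not pass. Klf5, a factor of proliferating smooth muscle and epithelium, differed by 0.096 ± 0.10 (SE, 3 arrays per group; limma's adjusted p = 0.632), with a 95% confidence interval of -0.14 to 0.33. Its 3 probe sets disagreed. Probe set 1451021_a_at was at -0.022, -0.61 and -0.61 in control arrays and 0.36, 0.41 and 0.022 in MFAP5 arrays, a difference of 0.68 (adjusted p = 0.103). Probe set 1451739_at differed by -0.31 (adjusted p = 0.266), also with the groups apart, and the third by -0.082 with overlap. The mean of 3 such probe sets hides opposite directions, and which of them reads Klf5 mRNA best could not be read without levels.

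Klf7, known from neurons and from fat cell precursors, differed by 0.17 ± 0.11 (limma adjusted p = 0.400; interval -0.069 to 0.41). Of its 4 probe sets, 1449439_at was at -0.28, -0.47 and -0.14 in control arrays and 0.31, 0.45 and 0.14 in MFAP5 arrays. Those groups did not overlap, and their difference of 0.59 ± 0.14 missed the threshold (adjusted p = 0.0605). The other 3 probe sets lay between -0.0048 and 0.065 and overlapped.

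The CtBP-recruiting repressors were Klf3 and Klf12. Klf3, a repressor of blood and fat cell genes, is read by 7 probe sets and had gene values of -0.23, -0.11 and -0.084 in control arrays and -0.11, 0.42 and 0.046 in MFAP5 arrays. MFAP5 replicate 2 was far above the rest, and MFAP5 replicate 1 lay among the controls. The difference was 0.26 ± 0.14 (limma adjusted p = 0.349; interval -0.067 to 0.59). Probe set 1454666_at differed most, by 0.88 (adjusted p = 0.157): control replicates 2 and 3 were at -1.07 and -1.01, while control replicate 1, at 0.036, lay among the MFAP5 values of 0.14, 0.49 and -0.036. The other 6 probe sets of Klf3 lay between -0.10 and 0.33.

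Klf12, also known as AP-2rep for its repression of an AP-2 gene, differed by -0.069 ± 0.097 (limma adjusted p = 0.719; interval -0.29 to 0.15). Among its 5 probe sets 1439846_at was called lower, at 0.16, 0.60 and 0.51 in control arrays and -0.16, -0.25 and -0.30 in MFAP5 arrays. That difference of -0.66 ± 0.14 had an adjusted p of 0.0463 in limma, and it missed the threshold without any of control replicates 2 and 3 and MFAP5 replicates 1, 2 and 3 (adjusted p from 0.106 to 0.194). The other 4 probe sets lay between -0.13 and 0.25, so the call was made on 1 of 5.

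The Sin3a-binding repressors Klf9, Klf10 and Klf13 did not pass as genes. Klf9, which glucocorticoid and thyroid hormone raise, differed by 0.18 ± 0.11 (limma adjusted p = 0.385; interval -0.063 to 0.42). Its 7 probe sets spread from -0.24 to 0.61. Highest was 1456341_a_at, at -0.074, -0.56 and -0.49 in control arrays and 0.37, 0.074 and 0.28 in MFAP5 arrays, with an adjusted p of 0.0822. Probe set 1428289_at, at 0.30, also had its groups apart, and 1422264_s_at, at 0.50, did not, because control replicate 1 lay among the MFAP5 arrays.

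Klf10, first known as a TGF-beta-inducible early gene, is read by 1 probe set (1416029_at). It was at 0.36, -0.13 and 0.044 in control arrays and -0.080, -0.044 and 0.21 in MFAP5 arrays. The groups overlapped, and control replicate 1 was the highest array. The difference was -0.064 ± 0.15 (limma adjusted p = 0.833; interval -0.40 to 0.27). Klf13, an activator of the chemokine gene Ccl5 in lymphocytes, differed by -0.094 ± 0.12 (adjusted p = 0.700; interval -0.38 to 0.19), and its 3 probe sets lay between -0.20 and 0.060 with overlap. For the 7 factors that did not pass, the intervals of the gene values reach at most 0.59 upwards and -0.40 downwards. They hold for the mean of a factor's probe sets and do not bound the change in each one. Intervals of single probe sets reach 1.54 upwards (1454666_at of Klf3) and -0.99 downwards (1439846_at of Klf12).

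**Figure D3:**
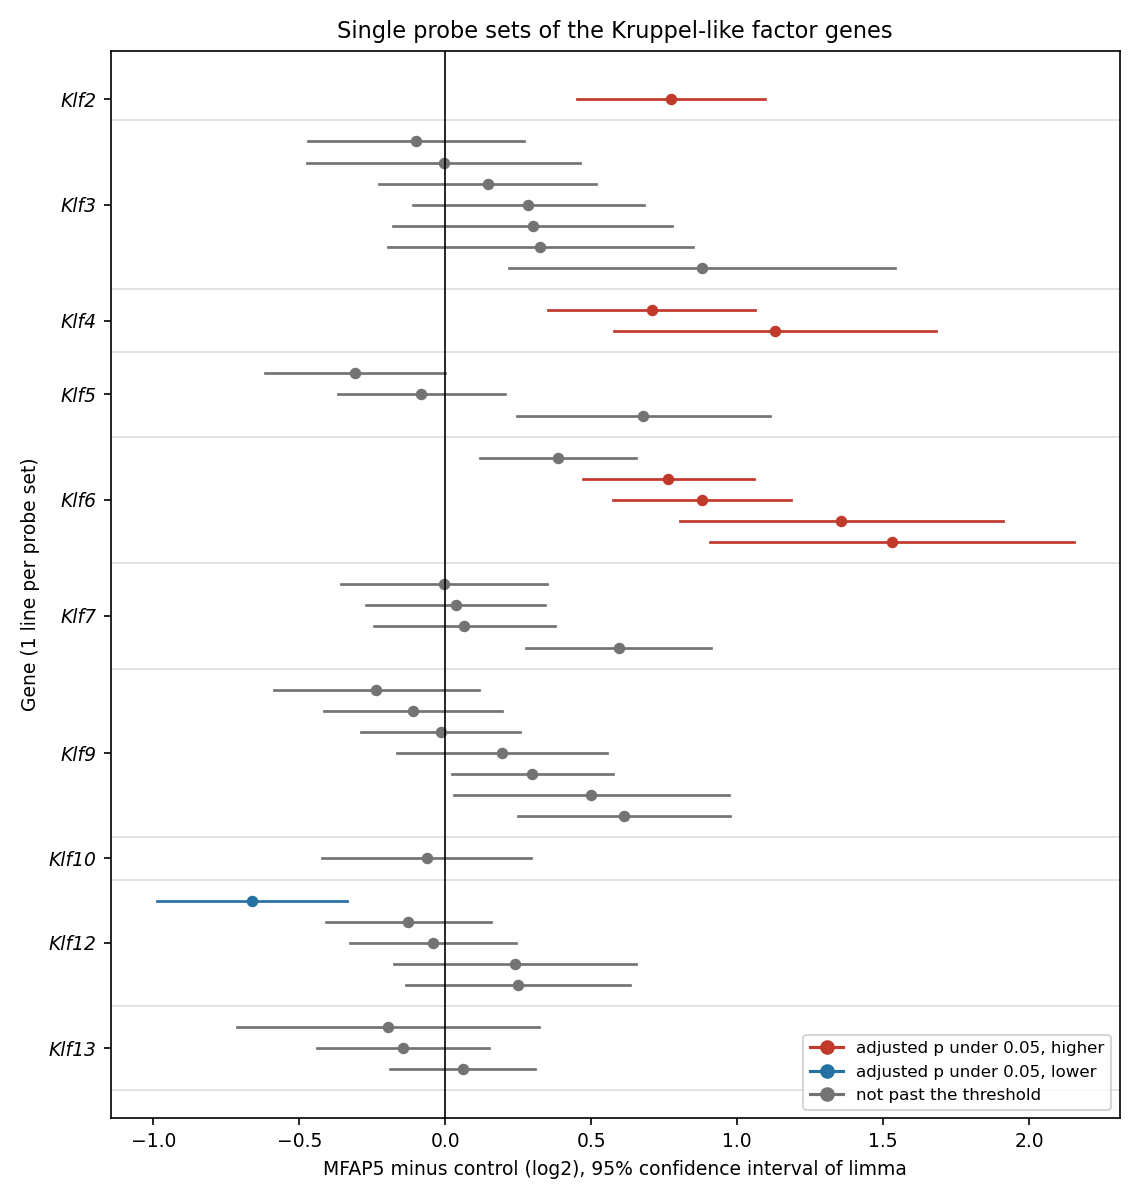
Difference between MFAP5 and control (log2) with its 95% confidence interval for each of the 38 probe sets, grouped by gene and sorted within a gene. The 7 red probe sets belong to Klf2, Klf4 and Klf6, the blue one to Klf12, and Klf3, Klf5, Klf7, Klf9, Klf12 and Klf13 have probe sets on both sides of 0.

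Among the 18192 other genes, the 3 nearest to Klf2 by root mean square difference of the gene values over 6 arrays were Pim1, a serine/threonine kinase (0.080), Sbno2 (0.083) and St3gal1, a sialyltransferase (0.086). The 3 nearest to Klf4 were Fn1, which encodes fibronectin (0.12), Klf6 (0.13) and Chaserr, a long non-coding RNA (0.13). Fn1 was at -0.22, -0.57 and -0.53 in control arrays and 0.19, 0.55 and 0.45 in MFAP5 arrays, the same order of control replicate 1 above the other controls as in Klf4. These distances over 6 arrays are a description.

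Of 6 other measured Kruppel-like factor genes, 1 fell and none rose: Klf15, a regulator of fat and muscle metabolism. Klf15 was at 1.13, 1.55 and 1.40 in control arrays and -1.56, -1.44 and -1.13 in MFAP5 arrays. The difference of -2.74 ± 0.15 (SE, 3 arrays per group; limma's adjusted p = 1.55e-04) passed with every array left out, at -2.86 to -2.64. At an unadjusted p under 0.05, 0 of the 6 were higher and 2 were lower, the other being Klf14 at -0.36 (adjusted p = 0.0996). The list median was -0.25, and limma called 2 lower without control replicate 1. Of 7 measured genes of the related Sp family, limma called 0, with 0 at an unadjusted p under 0.05 (1 was called higher without control replicate 1), and the most different was Sp3 at 0.64 (adjusted p = 0.289), in which control replicate 1 again lay above all MFAP5 arrays.

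Klf15 moved with the fat cell markers. All 10 measured adipocyte markers were lower with MFAP5, 9 of them past the threshold (5 without control replicate 2 or 3), and their summed relative signal ran from 11.1 to 13.0 in the controls and from -37.2 to -10.2 with MFAP5. In such bulk samples fewer cells of a type and less RNA per cell cannot be told apart. Between the groups, Klf2, Klf4 and Klf6 were higher where those markers were lower. Within the groups the order differed by factor. The summed marker signal was -37.2, -25.8 and -10.2 in MFAP5 replicates 1 to 3. There Klf2 and Klf4 were lowest in replicate 1 and Klf6 was highest in replicate 3. In control replicates 1 to 3 the summed marker signal was 11.1, 13.0 and 12.8. Control replicate 1, with the lowest sum of the controls, was the highest control for Klf4 and Klf6 and the lowest for Klf2. The 3′ signal of beta-actin relative to its 5′ signal, a sign of RNA integrity, was higher in the MFAP5 arrays, by 0.12 on the log2 scale (exact permutation test, two-sided, p = 0.1, the smallest that 3 against 3 arrays allow). The same measure of Gapdh overlapped between the groups, with a difference of 0.081 (exact permutation test, p = 0.4). The part of either in the differences of the factors was not tested.

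Upstream of Klf2 and Klf4, 1 of 15 measured genes of the ERK5 and MEF2 pathway and the CCM complex rose and none fell. It was Heg1, the transmembrane receptor that anchors the CCM complex at endothelial junctions. Heg1 was at -0.47, -0.69 and -0.75 in control arrays and 0.50, 1.23 and 0.47 in MFAP5 arrays, a difference of 1.37 ± 0.20 (SE; limma adjusted p = 0.00859). All MFAP5 arrays were above all controls, and the call was lost without control replicate 2 or 3 (adjusted p = 0.0530 and 0.0556). Krit1, the CCM1 protein that binds Heg1, differed by 0.30 with the groups apart (adjusted p = 0.151), and Pdcd10, the CCM3 protein, by 0.28 (adjusted p = 0.283). Hdac7, a repressor of MEF2 in endothelium, differed by -0.25 (adjusted p = 0.367). At an unadjusted p under 0.05, 2 of the 15 were higher and 0 were lower, and without control replicate 1 limma called 2 higher and 1 lower.

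Of 10 genes that Klf2 and Klf4 are known to raise in endothelium, 1 fell and none rose. Nos3, the endothelial nitric oxide synthase, was at 0.31, 0.77 and 0.81 in control arrays and -0.81, -0.44 and -0.31 in MFAP5 arrays. The groups were apart, with a difference of -1.15 ± 0.18 (SE, 3 arrays per group; limma's adjusted p = 0.0102), which missed the threshold without control replicate 2 or 3 (adjusted p = 0.0617 and 0.0637). Tek, the angiopoietin receptor, differed by -0.75 (adjusted p = 0.0592), Aqp1, a water channel, by 1.31 (0.167) and Ptgds, a prostaglandin D synthase, by -0.23 (0.262). Thbd, which encodes thrombomodulin, was at -0.26 (adjusted p = 0.390). At an unadjusted p under 0.05, 1 of the 10 was higher and 2 were lower, Nos3 and Tek, against 5.33% and 14.4% of all genes. The list median was -0.16, and Tek is also 1 of the 16 endothelial markers. Without control replicate 1 limma called 2 lower, and without MFAP5 replicate 3 it called 1 higher and 1 lower. Of the 16 endothelial markers limma called 0, with 0 higher and 5 lower at an unadjusted p under 0.05, which 14.4% of all genes were. Without control replicate 1, limma called 3 of the 16 lower, when it called 1914 of all 18193 genes lower. The markers' median difference was -0.21, and their summed signal ran from -0.66 to 4.05 in the controls and from -2.67 to -1.08 with MFAP5.

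Of 11 measured genes that Klf2 and Klf4 are known to lower, 1 rose and none fell, the cytokine gene Il6 at 2.61 ± 0.55 (SE, 3 arrays per group; limma's adjusted p = 0.0407). Il6 was at 2.64, 0.49 and 3.01 in the MFAP5 arrays and at -0.60, -0.59 and -0.49 in the controls, so MFAP5 replicate 2 lay well below the other MFAP5 arrays. The call on Il6 held without MFAP5 replicate 2 and was lost with any other array left out (adjusted p from 0.0515 to 0.155). F3, which encodes tissue factor, differed by 0.53 and Adm, which encodes adrenomedullin, by -0.22, both with overlap (adjusted p = 0.346 and 0.448). The adhesion molecule genes Vcam1 and Sele differed by -0.045 and 0.14 and Edn1, which encodes endothelin 1, by -0.065 (adjusted p = 0.850, 0.554 and 0.814). The list median was -0.059, near that of all genes, and at an unadjusted p under 0.05 1 gene was higher and 0 were lower.

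Limma called 0 of 7 ubiquitin ligase genes that act on Kruppel-like factors and 0 of 8 measured co-repressor genes, of which it called 3 higher without control replicate 1. At an unadjusted p under 0.05, 1 ligase gene was lower, Vhl at -0.31 (adjusted p = 0.230), and 1 co-repressor gene was higher, Ctbp1, a partner of Klf3 and Klf12, at 0.29 (adjusted p = 0.182). Of 8 glucocorticoid-responsive genes, which Klf9 usually accompanies, limma also called 0 (1 higher and 1 lower without control replicate 1, 1 higher without MFAP5 replicate 2 and 2 higher without MFAP5 replicate 3), and they split, with 3 higher and 2 lower at an unadjusted p under 0.05. Errfi1 and the clock gene Per1 were at 0.86 and 0.70, and Zbtb16 and Fkbp5, a chaperone of the glucocorticoid receptor, at -0.41 and -0.35 (adjusted p from 0.0572 to 0.134).

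The immediate early genes, which serum, stress and cell dissociation raise within minutes, moved in the direction of Klf2, Klf4 and Klf6. Of 23, 11 rose and none fell, all 23 had a positive difference, and the median was 0.69. Their summed signal ran from -8.62 to -6.14 in the controls and from 4.43 to 17.8 with MFAP5, where replicate 2 was the lowest. For Klf2 and Klf4 the lowest MFAP5 array was replicate 1, and for Klf6 it was replicate 2 (0.309, against 0.312 in replicate 1). The sum was highest in MFAP5 replicate 3, as were Klf2 and Klf6, while Klf4 was at 0.476 in replicate 2 and 0.473 in replicate 3. Among the controls the sum was highest in replicate 1 (-6.14), as were Klf4 and Klf6, whereas Klf2 was lowest there. Egr3, Ier3, Dusp5 and Dusp1, with the smallest p, rose by 1.24, 0.69, 1.24 and 0.90 (limma adjusted p from 0.00230 to 0.00928). The count of higher genes was 15 without control replicate 1 or without MFAP5 replicate 2. Without control replicate 2 or 3 it was 2, without MFAP5 replicate 1 it was 4, and without MFAP5 replicate 3 it was 7. The part of this response in the differences of Klf2, Klf4 and Klf6 was not tested.

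**Figure D4:**
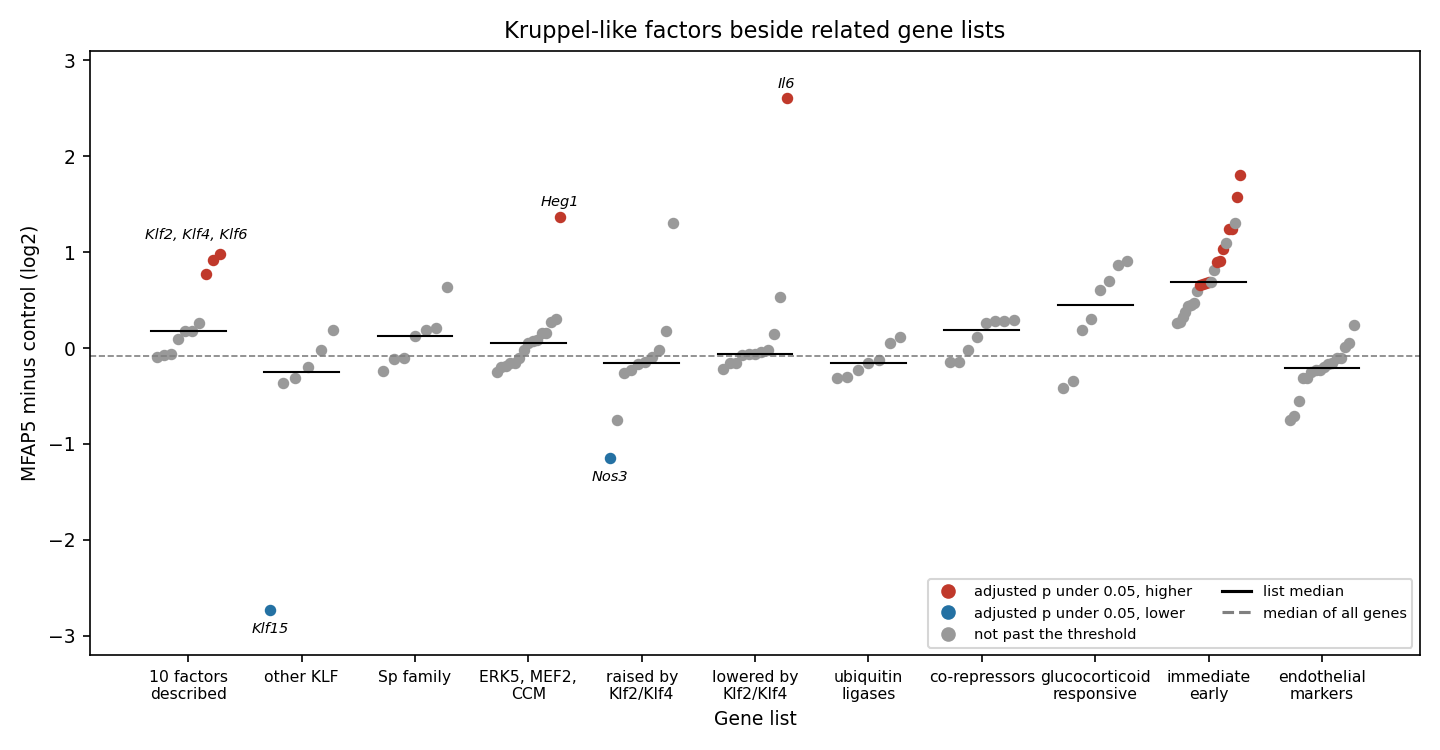
Difference between MFAP5 and control (log2) of the 10 factors and of the genes of 10 related lists, with 1 point per gene, black lines for list medians and a dashed line for the median of all genes at -0.079. Klf15 and Nos3 are the blue points, Klf2, Klf4, Klf6, Heg1 and Il6 are the labelled red ones, and the other red points are the 11 immediate early genes that rose.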

How the data were processed

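Total RNA of 3 control and 3 MFAP5 samples was amplified to biotin-labelled cRNA for 1-colour arrays, per the labels' protocols. The deposited values are log2 signals centred on each probe set's median, as read from the values (row medians within 5e-07 of 0, widest range 8.24); a natural log was not excluded, and folds would then be larger. The submitters' processing notes name MAS5; scaling and later steps are not stated there. Of 45101 probe sets, 64 controls were left out. The platform annotation gave 34945 probe sets 1 symbol, updated through Entrez identifiers (RefSeq, GRCm38.p6; 34741 matched). Probe sets of a gene were averaged.

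Groups were compared with limma 3.58.1 (R 4.3.3; lmFit, eBayes, two-sided, Benjamini-Hochberg over all features, threshold 0.05). In simulated data, with 50 changed probe sets per size, limma called 4% of changes of 0.5 log2, 48% of 1 and 92% of 2. Of the 125 calls there, 5 were false. Changes of the smaller sizes can therefore go uncalled. The simulated noise was normal and independent between probe sets, with no array that stood apart. In the data limma called 704 probe sets higher and 774 lower, so the simulated shares need not hold there. Differences are MFAP5 minus control. Alternatives were quantile normalization, subtraction of array medians, array weights, a block for the replicate number, each array left out, other gene summaries, an unmoderated statistic and the mean of 18 spike-in probe sets as a covariate. By rule the text could name all members, list genes that passed, up to 4 per list with the smallest p, and the 3 genes nearest to Klf2 and to Klf4; Thbd, Vcam1 and Edn1 fall outside it and were chosen after their values were seen. Members and lists were chosen with earlier results of these data known. Motifs were searched on both strands; the CArG box, MEF2 and NF-kappa B motifs used degenerate letters.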

Additional observations from a re-analysis of the deposited data

How the results depend on the processing

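The count of higher factors was 3 in the reported analysis, 1 to 3 with each array left out and 0 with the unmoderated statistic, which called 1 gene in all (646 as reported) and left the 3 factors at an unadjusted p under 0.05. It was 3 with every other alternative, and the count of lower factors was 0 throughout. Higher probe sets numbered 13 with array weights, 0 with the unmoderated statistic (12 at an unadjusted p under 0.05) and 0 to 12 with each array left out, against 7 reported. The lower probe set of Klf12 was lost with the spike-in covariate (0 called) and the unmoderated statistic (0 called), and 0 to 1 were called with each array left out; 1 to 3 lower probe sets had an unadjusted p under 0.05. All genes called numbered 3049 with array weights, 381 with the spike-in covariate and 219 to 2674 with each array left out. Klf10 ranged from -0.17 to 0.071 with each array left out, turning positive without control replicate 1, and Klf13 to 0.011 with the spike-in covariate; neither passed. The causes were not tested. With the replicate number as a block, 3 factors and 7 probe sets were higher (Klf4 1417395_at lost and Klf9 1456341_a_at gained, adjusted p = 0.0636 and 0.0455). With that block 0 probe sets were lower and 743 genes were called. Deviations from the group mean correlated at 0.21, 0.055 and 0.085 in same-numbered arrays and at -0.15 to 0.084 in the other pairs. Whether same-numbered samples shared more than a number cannot be told from these correlations. Dim probe sets could not be filtered, because centring removed the signal level.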

Other observations

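Of 8 regulators of fat cell differentiation, with which several Kruppel-like factors act, 2 fell and none rose: Pparg at -2.45 and Srebf1 at -1.34 (limma adjusted p = 0.00146 and 0.00164). Pparg is also 1 of the 10 measured adipocyte markers above. Cebpa was at -0.58 and Cebpd at 0.26, both with the groups apart and short of the threshold (adjusted p = 0.0614 and 0.222). Limma called 0 of 12 macrophage markers (2 higher and 1 lower without control replicate 1), with 1 higher and 1 lower at an unadjusted p under 0.05, and their summed signal overlapped, from -1.14 to 1.25 in the controls and from -0.67 to 1.36 with MFAP5. Of 12 neutrophil markers 4 fell (3 to 6 with each array left out), and their summed signal ran from 1.10 to 5.20 in the controls and from -6.83 to -2.74 with MFAP5. Of 9 fibroblast markers 1 fell, Pi16 at -0.93 (adjusted p = 0.0336), while the other 8 had positive differences; 0 fell without control replicate 2 or 3 or without MFAP5 replicate 2 or 3, and 3 rose without control replicate 1. Limma called 0 of 8 mesothelial, 0 of 9 pericyte and smooth muscle, 0 of 7 lymphocyte and 0 of 5 skeletal muscle markers, with 0 higher in each and 1, 1, 2 and 2 lower at an unadjusted p under 0.05. Without control replicate 1, 1 of the pericyte and smooth muscle and 1 of the lymphocyte markers was called lower.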
